A study of Mus musculus with 25 samples.

Results

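The set described here is 10 mouse genes of one signalling system of myeloid cells: Pirb, the 4 receptors for the Fc part of IgG (Fcgr1, Fcgr2b, Fcgr3 and Fcgr4), the ITAM adaptors Fcer1g and Tyrobp, and the intracellular relays Syk, Btk and Blnk. The members were taken as a list of symbols, and all 10 of 10 were found among the 41388 gene identifiers in the count files and passed the filter on low counts, which kept 14065 genes. The list was chosen with measured values known: Pirb and Blnk were chosen by their rise in Western diet-fed WT mice given NAMPT, where all 6 libraries lay above all 6 empty vector libraries. Levels in that comparison, and in the other comparisons that use the WD WT NAMPT libraries, are therefore a description: no p-value of a member is given there, and the counts of calls restate the choice and support nothing.

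RNA came from liver of male C57B/6J mice aged 20 weeks, 1 library per mouse. All mice received an AAV8 vector by tail vein, either empty (EV) or carrying NAMPT, the rate-limiting enzyme of NAD+ salvage, under the hepatocyte-restricted thyroxine binding globulin promoter. WT mice were Sirt1 LoxP/LoxP without Cre, and SIRT1 LKO littermates carried the same floxed allele with Albumin-cre, which acts in hepatocytes and not in the myeloid, B or sinusoidal endothelial cells where the 10 genes are best known. The groups were chow WT EV (n = 3) and, after 12 weeks of Western diet (WD), WD WT EV (n = 6), WD WT NAMPT (n = 6), WD LKO EV (n = 5) and WD LKO NAMPT (n = 5). No chow LKO and no chow NAMPT group was analysed here. The treatment text of the labels names SIRT1 as the vector's insert, whereas the sample titles and the series' design text name NAMPT, and the titles were followed.

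An ITAM is a short tyrosine motif that, once phosphorylated by a Src-family kinase, docks the kinase Syk and starts an activating signal. The activating Fc receptors Fcgr1, Fcgr3 and Fcgr4 borrow the ITAM of Fcer1g, the common gamma chain, and receptors such as Trem2 and the SIRP-beta proteins borrow the ITAM of Tyrobp, also called DAP12. Pirb and Fcgr2b carry the opposite motif, the ITIM, which recruits phosphatases that end the signal. Liver macrophages (Kupffer cells) and recruited monocytes carry most of these proteins, while Fcgr2b in liver is best known from sinusoidal endothelial cells, which clear immune complexes.

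The libraries held between 20166175 and 32937326 counts over genes. Whole-gene Sirt1 was not lower in the LKO libraries: it read 8.57 ± 1.34 CPM (SD, n = 5) in WD LKO EV against 8.86 ± 0.573 (SD, n = 6) in WD WT EV, a log2 difference of -0.07 (limma adjusted p = 0.99). A count over the whole gene also takes reads from exons outside a floxed part, so it is a weak check of the genotype label, and LKO is used below as the label's word. Nampt read 47.4 ± 6.46 CPM in WD WT EV, 59.5 ± 10.6 in WD WT NAMPT, 56.1 ± 12.0 in WD LKO EV and 79.9 ± 28.4 in WD LKO NAMPT, and neither NAMPT comparison passed the threshold for it (limma adjusted p = 0.144 in WT and 0.403 in LKO). Levels here and below are TMM-scaled CPM, the counts of a gene relative to the scaled total of its library, and RPKM, which also divides by exon length, where genes are compared. The smallest difference between libraries of the same group was 15.4 times the counting noise (chi-square per degree of freedom). No library was therefore a repeat of another in its group, and pairs from different groups were not compared.

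The members other than Fcgr2b moved together across libraries while their genes lie on 6 chromosomes. The promoters of the members are shown as a description, and no cause of that movement was tested. RefSeq windows of 300 bases, from 250 bases before to 50 after a start site, were found for 9 of the 10 members, and Tyrobp was named only. The letters searched were GAGGAAG, the core of sites bound by PU.1, the myeloid lineage factor, on either strand (CTTCCTC when read on the gene's own strand). The motif was found in 5 of the 9 members (Pirb, Fcgr1, Fcgr3, Fcgr4 and Btk), against 15.36% of the 27025 genes of the same table. It was not found in Blnk, Fcgr2b, Fcer1g or Syk. The 6 windows below are those 5 and that of Blnk, which was chosen with Pirb and held no match. Each is written 5′ to 3′ on the gene's strand with the motif in capitals.
Pirb: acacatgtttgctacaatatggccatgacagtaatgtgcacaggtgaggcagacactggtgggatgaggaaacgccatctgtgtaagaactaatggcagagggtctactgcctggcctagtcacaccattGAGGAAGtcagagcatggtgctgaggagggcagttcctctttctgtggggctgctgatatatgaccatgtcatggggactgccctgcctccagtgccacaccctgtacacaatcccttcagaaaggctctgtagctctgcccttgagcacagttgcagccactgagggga
Fcgr1: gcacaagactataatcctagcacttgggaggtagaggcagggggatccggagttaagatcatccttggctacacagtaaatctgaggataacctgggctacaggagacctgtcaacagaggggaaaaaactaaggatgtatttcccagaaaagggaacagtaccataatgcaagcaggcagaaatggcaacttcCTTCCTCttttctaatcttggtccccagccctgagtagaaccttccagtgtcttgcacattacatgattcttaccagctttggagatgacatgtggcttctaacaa
Fcgr3: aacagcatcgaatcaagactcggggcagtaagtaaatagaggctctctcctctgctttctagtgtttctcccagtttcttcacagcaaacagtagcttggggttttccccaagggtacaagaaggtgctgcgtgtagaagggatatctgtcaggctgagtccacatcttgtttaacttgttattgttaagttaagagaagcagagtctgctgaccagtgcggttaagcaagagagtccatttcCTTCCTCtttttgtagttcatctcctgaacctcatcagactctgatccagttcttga
Fcgr4: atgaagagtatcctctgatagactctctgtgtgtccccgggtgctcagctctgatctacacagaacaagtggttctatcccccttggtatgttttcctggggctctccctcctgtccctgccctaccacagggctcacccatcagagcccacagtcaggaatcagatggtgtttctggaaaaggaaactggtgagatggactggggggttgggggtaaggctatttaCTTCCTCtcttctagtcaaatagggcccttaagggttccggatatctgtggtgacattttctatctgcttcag
Btk: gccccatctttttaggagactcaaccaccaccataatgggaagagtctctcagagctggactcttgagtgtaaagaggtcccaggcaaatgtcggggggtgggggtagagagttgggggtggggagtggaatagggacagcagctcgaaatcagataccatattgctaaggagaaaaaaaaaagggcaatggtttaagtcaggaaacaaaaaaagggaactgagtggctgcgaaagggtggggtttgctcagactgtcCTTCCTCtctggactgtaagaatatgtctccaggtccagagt
Blnk: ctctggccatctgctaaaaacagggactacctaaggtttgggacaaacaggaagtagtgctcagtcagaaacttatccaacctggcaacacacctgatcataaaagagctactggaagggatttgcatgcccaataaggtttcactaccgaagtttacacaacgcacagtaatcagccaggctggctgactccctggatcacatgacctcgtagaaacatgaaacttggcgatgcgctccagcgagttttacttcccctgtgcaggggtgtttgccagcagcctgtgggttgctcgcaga

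On build GRCm38.p6 these windows were Pirb chr7:3720333-3720632 (minus strand), Fcgr1 chr3:96293920-96294219 (minus), Fcgr3 chr1:171059354-171059653 (minus), Fcgr4 chr1:171018676-171018975 (plus), Btk chrX:134583091-134583390 (minus) and Blnk chr19:40994172-40994471 (minus). The match began 120 bases before the start site in Pirb, 56 before it in Fcgr1, 7 before it in Fcgr3, 23 before it in Fcgr4 and 8 after it in Btk. Fcgr3 had another annotated start site (window chr1:171059345-171059644), from which the same match began 16 bases before. A match is a match of letters and does not show that a factor bound there.

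The 10 genes differ in how cleanly their reads can be told from those of relatives. Fcgr2b, Fcgr4, Fcgr3 and Fcer1g lie within 273.8 kb of chromosome 1 (170960558 to 171234365), and Pirb lies at the start of the paired immunoglobulin-like receptor cluster on chromosome 7 (3711409 to 3720391, minus strand, 12 exon blocks). No exon of a member overlapped an exon of another gene in the files. Of the 4648 distinct 50-base words in the transcripts of Pirb, the length of the reads, 33.972% also occurred in another gene, and 31.05% in the 8 genes and pseudogenes that follow it up to and including Lilra6. Fcgr3 shared 9.579% of its words, all with Fcgr2b, Fcgr2b shared 6.948% and Blnk 0.451%, while Fcgr1, Fcgr4, Fcer1g, Tyrobp, Syk and Btk shared none. The relatives of Pirb were themselves scarce. Pira2, an activating relative of Pirb, held 20 to 146 counts per library in the WD groups and the other 7 held at most 32, and Gm15931, a pseudogene farther along chromosome 7 that shared 502 words, held at most 49, against 88 to 658 counts for Pirb over the 25 libraries. Pirb levels therefore carry some uncertainty from shared sequence. Only uniquely aligned reads were counted, so reads in shared words would be lost and not split.

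Per gene length, Tyrobp and Fcer1g were the most abundant members in every group. In WD WT EV the mean RPKM was 30.4 for Tyrobp, 21.03 for Fcer1g, 12.3 for Fcgr2b, 6.32 for Fcgr4, 5.89 for Fcgr3, 1.59 for Fcgr1, 1.05 for Syk, 0.979 for Pirb, 0.485 for Btk and 0.225 for Blnk. In WD WT NAMPT Pirb stood at 2.68 RPKM and Syk at 1.997, and Pirb stood above Syk in every group but WD WT EV. The first 6 members had the same order in all WD groups. In 9 of 10 members the group mean was highest in WD WT NAMPT and lowest in chow. Fcgr2b had its highest mean in chow and its lowest in WD LKO NAMPT.

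**Figure D1:**
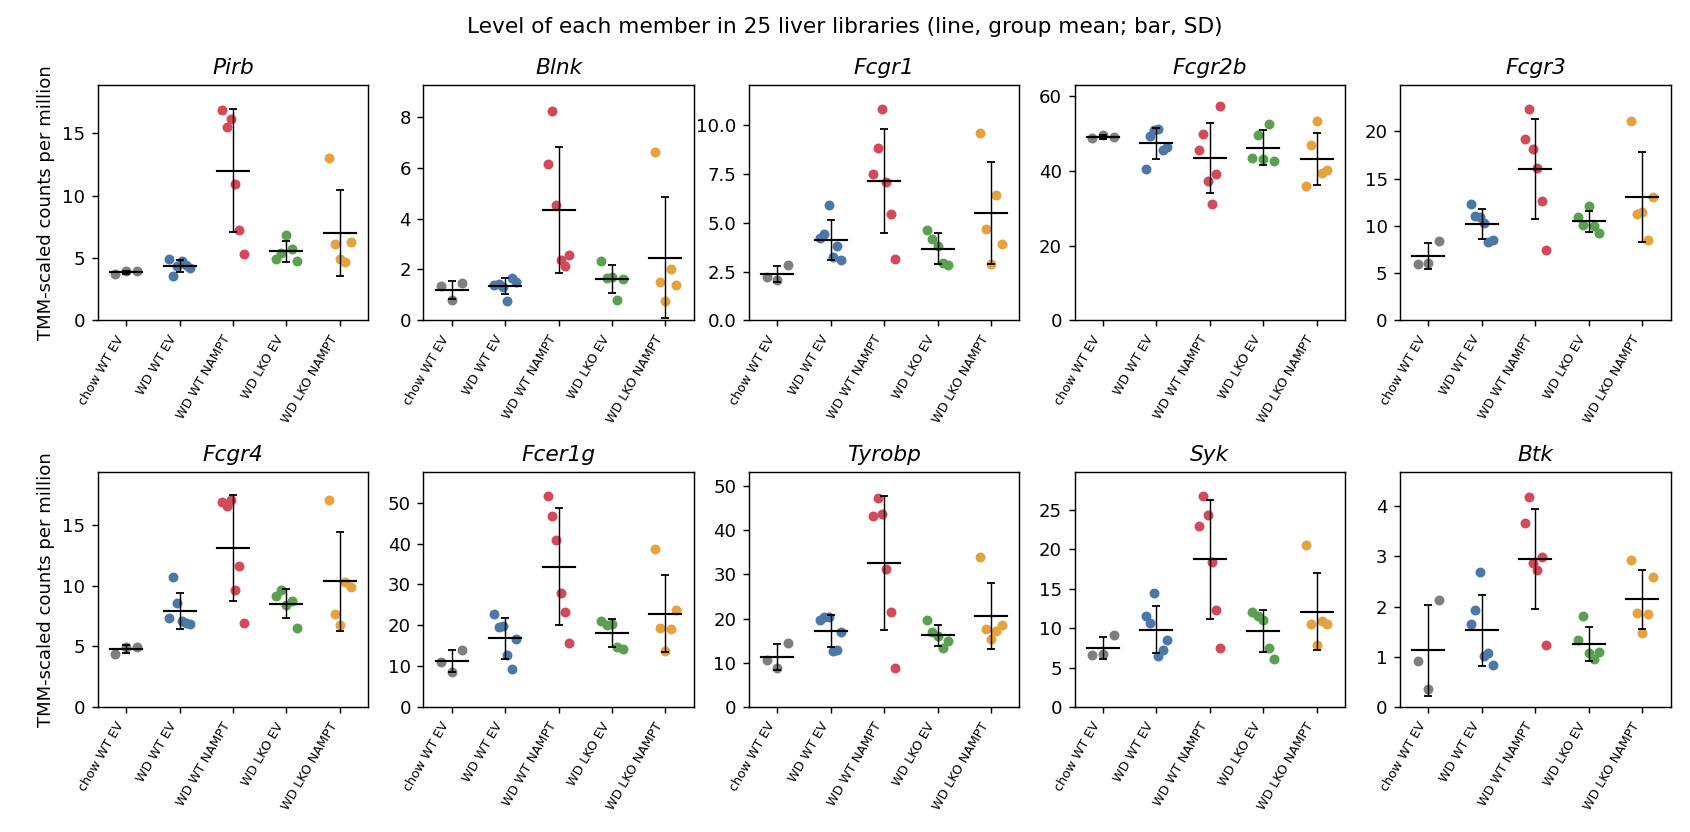
TMM-scaled CPM of each member (vertical axis, from 0, a separate scale per gene) in every library of the 5 groups (horizontal axis); points are mice, the line is the group mean and the bar the SD. The WD WT NAMPT points spread widely and reach 16.8 for Pirb, 1 WD LKO NAMPT mouse stands above the rest of its group, and Fcgr2b stays between 31.2 and 57.4 in all libraries.

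Pirb, the inhibitory receptor that binds MHC class I on the same or neighbouring cells, was chosen with Blnk for its level with NAMPT in WT mice. Its level was 3.68, 3.92 and 3.94 CPM in the chow libraries. In WD WT EV it ran from 3.55 through a median of 4.43 to 4.89 CPM, and in WD WT NAMPT from 5.28 through 13.2 to 16.8 CPM. The NAMPT libraries thus began just above the highest empty vector library, and 4 of the 6 exceeded 10 CPM. In WD LKO EV Pirb read 4.95, 5.36, 6.85, 5.68 and 4.76 CPM in replicates 1 to 5, and in WD LKO NAMPT 13.02, 6.12, 4.88, 4.65 and 6.31 CPM. Replicate 1 alone of the LKO NAMPT mice reached the range of the upper WT NAMPT libraries, and the other 4 lay within or just below the range of the LKO EV mice.

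Fcgr2b, the inhibitory IgG receptor, differed from every other member. Its level was 48.6, 49.5 and 49.0 CPM in chow, from 40.4 through 47.9 to 51.3 in WD WT EV, and from 31.2 through 42.2 to 57.4 in WD WT NAMPT. WD LKO EV libraries read 43.3, 49.6, 43.0, 52.5 and 42.5 CPM and WD LKO NAMPT libraries 36.0, 47.0, 53.2, 39.4 and 40.1 CPM. All 5 groups overlapped, and the highest library of the series was WD WT NAMPT replicate 6, which was the lowest library of its group for 8 other members.

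The activating IgG receptors were higher after NAMPT in WT mice in most libraries but not in all. Fcgr4, the receptor of intermediate affinity, read 4.38, 4.99 and 4.93 CPM in chow, from 6.88 through 7.24 to 10.7 in WD WT EV and from 6.95 through 14.1 to 17.1 in WD WT NAMPT. Fcgr3, the low-affinity IgG receptor, read 6.00, 6.05 and 8.36 CPM in chow, from 8.26 through 10.6 to 12.3 in WD WT EV and from 7.49 through 17.1 to 22.4 in WD WT NAMPT. Fcgr1, the high-affinity receptor, read 2.23, 2.05 and 2.84 CPM in chow, from 3.10 through 4.01 to 5.91 in WD WT EV and from 3.12 through 7.29 to 10.8 in WD WT NAMPT. For each of the 3 receptors the WT EV and WT NAMPT ranges met only through the lowest NAMPT libraries. In the LKO mice the means were 8.52 ± 1.19 (SD, n = 5) against 10.4 ± 4.04 CPM (SD, n = 5) for Fcgr4, 10.5 ± 1.10 against 13.1 ± 4.76 CPM for Fcgr3 and 3.68 ± 0.773 against 5.50 ± 2.63 CPM for Fcgr1, EV first and NAMPT second.

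The balance of activating and inhibitory IgG receptors is what sets the response of a phagocyte to immune complexes, so the summed RPKM of Fcgr1, Fcgr3 and Fcgr4 was divided by that of Fcgr2b in each library, a ratio chosen after the values were seen. It was 0.618, 0.642 and 0.773 in chow, from 0.961 through 1.08 to 1.39 in WD WT EV, and 1.37, 1.17, 1.36, 1.02 and 1.05 in WD LKO EV. All chow libraries lay below all WD libraries given the empty vector. In WD WT NAMPT the ratio ran from 0.741 through 2.30 to 2.92, and in WD LKO NAMPT it was 3.15, 1.18, 0.948, 1.52 and 1.63. In bulk liver RNA, fewer or more cells of a type and less or more RNA per cell cannot be told apart, and this holds for the ratio too if Fcgr2b and the activating receptors sit on different cells.

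The adaptors followed the pattern of the activating receptors. Fcer1g read 11.04, 8.64 and 13.9 CPM in chow, from 9.38 through 18.1 to 22.7 in WD WT EV, from 15.6 through 34.4 to 51.6 in WD WT NAMPT, and 38.6, 19.5, 13.7, 19.04 and 23.6 in WD LKO NAMPT. Tyrobp read 10.6, 8.81 and 14.4 CPM in chow, from 12.7 through 18.3 to 20.4 in WD WT EV, from 8.73 through 37.1 to 47.1 in WD WT NAMPT, and 33.9, 17.7, 15.4, 17.2 and 18.6 in WD LKO NAMPT. The WD LKO EV libraries lay at 14.3 to 21.05 CPM for Fcer1g and 13.4 to 19.7 CPM for Tyrobp, so for both genes the LKO ranges with and without NAMPT overlapped. Across the 25 libraries the adaptors correlated with a Spearman coefficient of 0.91.

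Syk, the kinase that reads the phosphorylated ITAM, read 6.57, 6.72 and 9.11 CPM in chow, from 6.41 through 9.57 to 14.5 in WD WT EV and from 7.43 through 20.7 to 26.8 in WD WT NAMPT. Its WD LKO EV libraries lay at 6.07 to 12.1 CPM and its WD LKO NAMPT values were 20.5, 10.5, 7.89, 10.96 and 10.5 CPM, with replicate 1 apart from the other 4. Btk, the Tec-family kinase downstream of Syk, was close to the counting limit at 8 to 177 counts per library. It read 0.910, 0.356 and 2.13 CPM in chow, from 0.832 through 1.36 to 2.69 in WD WT EV, from 1.24 through 2.93 to 4.17 in WD WT NAMPT, 1.33, 1.80, 1.07, 0.966 and 1.10 in WD LKO EV, and 2.93, 1.87, 1.48, 1.86 and 2.58 in WD LKO NAMPT. In Btk, unlike the other members, 4 of the 5 LKO NAMPT libraries lay above every LKO EV library.

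Blnk, the linker that joins Syk to Btk and phospholipase C in B cells and is also made by macrophages, was the scarcest member per length. It read 1.36, 0.801 and 1.46 CPM in chow, from 0.779 through 1.41 to 1.65 in WD WT EV, and from 2.13 through 3.56 to 8.23 in WD WT NAMPT, where the lowest value stood above the highest empty vector value. In WD LKO EV it read 2.33, 1.65, 1.69, 0.812 and 1.63 CPM, and in WD LKO NAMPT 6.63, 1.51, 0.741, 2.03 and 1.39. The libraries over 1 CPM numbered 21 of 25 for Blnk and 20 for Btk, against all 25 for the other members.

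In WD WT NAMPT against WD WT EV, the contrast on which Pirb and Blnk were selected, the log2 fold change from limma was 1.50 for Pirb (SE 0.23), 1.38 for Blnk (SE 0.36), 0.96 for Syk (SE 0.23), 0.94 for Fcer1g (SE 0.22), 0.94 for Btk (SE 0.27), 0.90 for Fcgr1 (SE 0.22), 0.88 for Tyrobp (SE 0.22), 0.64 for Fcgr3 (SE 0.16) and 0.63 for Fcgr4 (SE 0.19). Fcgr2b stood at -0.33 (SE 0.10). This fit weights libraries by their quality. Its calls, 9 members higher (7.67% of all genes tested) and 1 lower (5.77%), restate the choice of members on these libraries and nothing is read from them. Pirb and Blnk were chosen for having no overlap between the groups, which 0.37% of all genes had. The median of the members was 0.92 on the log2 scale against 0.00 over all genes tested. Calls of members and of all genes both varied across fits, though not in step throughout. They were 10 members and 1890 genes here, and 3 members (Pirb, Blnk and Fcer1g) and 428 genes with edgeR's quasi-likelihood test. Its exact test gave 7 and 859, DESeq2 9 and 1194, and limma without sample quality weights 1 (Pirb) and 192. Without WD WT NAMPT replicate 3 the calls were 1 member and 132 genes, and the value for Pirb was 1.29. In the edgeR and DESeq2 fits Blnk had a larger log2 fold change than Pirb (1.68 against 1.46 with DESeq2). Fcgr2b stood at -0.13 with DESeq2 and with both edgeR tests and was called in none of the 10 alternative fits. With 2 surrogate variables in the fit the log2 fold changes were smaller, at 0.90 for Pirb, 0.73 for Blnk, 0.36 for Btk, 0.33 for Fcer1g, 0.27 for Fcgr4, 0.24 for Fcgr1, 0.20 for Syk, 0.15 for Tyrobp and 0.12 for Fcgr3, with 1 member and 68 genes called. Without WD WT EV replicate 2 the calls were 5 members and 291 genes, and without WD WT EV replicate 6 they were 6 and 624.

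The WT NAMPT libraries were not alike. Replicate 6 was the lowest of its group in 8 of 10 members and had the smallest quality weight in the fit (0.336), and replicates 1, 2 and 3 together held the highest value for 9 members. The members' median log2 fold change, 0.92 with all libraries, was 1.02 without replicate 6 and 0.72 without replicate 3.

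**Figure D2:**
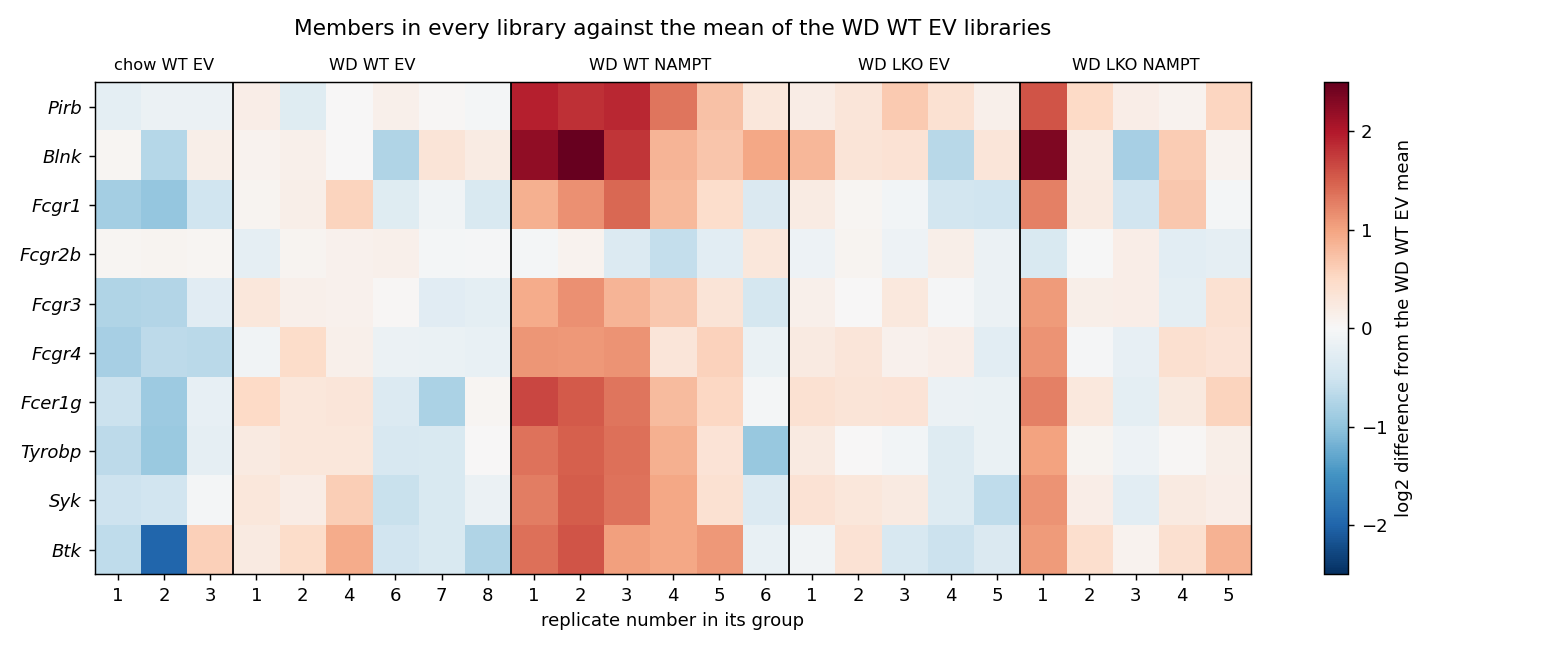
Log2 difference of each member (rows) in each of the 25 libraries (columns, replicate number within the group) from its mean over the WD WT EV libraries; red is higher and blue lower. WD WT NAMPT replicates 1 to 3 and WD LKO NAMPT replicate 1 are red in all rows but Fcgr2b, WD WT NAMPT replicate 6 is pale or blue in most, and the chow columns are mostly blue.

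In the LKO mice, which the choice of members did not use, NAMPT left every member short of the threshold. The number of members called was 0 with limma, against 0.00711% of all genes, and it was 0 with edgeR's quasi-likelihood test, its exact test and DESeq2 as well; 1 member, Btk, had an unadjusted limma p under 0.05. The members' log2 fold changes ran from -0.10 to 0.78 with a median of 0.20, against 0.02 over all genes, and 9 of 10 were above 0. Pirb differed by 0.16 (95% interval -0.33 to 0.65, limma adjusted p = 0.867) and Blnk by 0.16 (-0.64 to 0.96, limma adjusted p = 0.922). Fcgr1 differed by 0.44 (-0.06 to 0.95, limma adjusted p = 0.583) and Btk by 0.78 (0.17 to 1.38, limma adjusted p = 0.397). The intervals do not show that the LKO mice lacked a response, since for every member but Fcgr2b they reached above 0.5 on the log2 scale.

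WD LKO NAMPT replicate 1 held the highest value of its group in 9 of the 10 members. Without it the members' median log2 fold change in LKO mice was 0.10, Pirb stood at 0.04, Blnk at -0.10 and Btk at 0.72, and the number called stayed at 0.

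Set against the WD WT NAMPT libraries, the LKO NAMPT libraries had the lower mean CPM in each of the 10 members, though for Fcgr2b the means were 43.1 against 43.4 CPM and its log2 difference was 0.18 in limma and -0.015 with DESeq2. The log2 difference was -0.92 for Pirb (SE 0.21), -0.99 for Blnk (SE 0.34), -0.76 for Tyrobp (SE 0.23) and -0.75 for Syk (SE 0.23). As a description from which nothing is read, 3 members (Pirb, Tyrobp and Syk) were called lower in limma (3.78% of all genes), and 0 were called by edgeR's quasi-likelihood test, its exact test or DESeq2, with 8 under an unadjusted limma p of 0.05. The count of members changed with the library left out, as did that of all genes, which was 1120 with all libraries. It rose to 8 of 2258 genes called without WD LKO NAMPT replicate 1 and 8 of 2287 without WD WT NAMPT replicate 6. It was 0 of 150 and 0 of 78 without WD WT NAMPT replicates 2 and 3, and without WD LKO NAMPT replicates 2 and 5, where 0 and 2 genes were called in all, a count of 0 says nothing of the members. This comparison shares its WT libraries with the one that chose Pirb and Blnk, so it is no separate support.

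The difference between the NAMPT effects of the genotypes, the interaction, was -1.34 for Pirb (SE 0.33), -1.22 for Blnk (SE 0.53), -0.73 for Syk (SE 0.33), -0.71 for Fcer1g (SE 0.32) and -0.17 for Btk (SE 0.40). The number of members called was 0 with limma, edgeR's quasi-likelihood test and DESeq2, with 4 under an unadjusted limma p of 0.05 and 0.00711% of all genes called. It was 1 (Pirb) of 676 genes called when WD LKO NAMPT replicate 1 was left out, and 1 of 366 and 1 of 638 without WD WT NAMPT replicates 5 and 6. With 2 surrogate variables the difference turned above 0 for Syk (0.023), Btk (0.40), Fcgr1 (0.34) and Tyrobp (0.0073), and stood at -0.82 for Pirb, -0.54 for Blnk and -0.21 for Fcer1g.

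**Figure D3:**
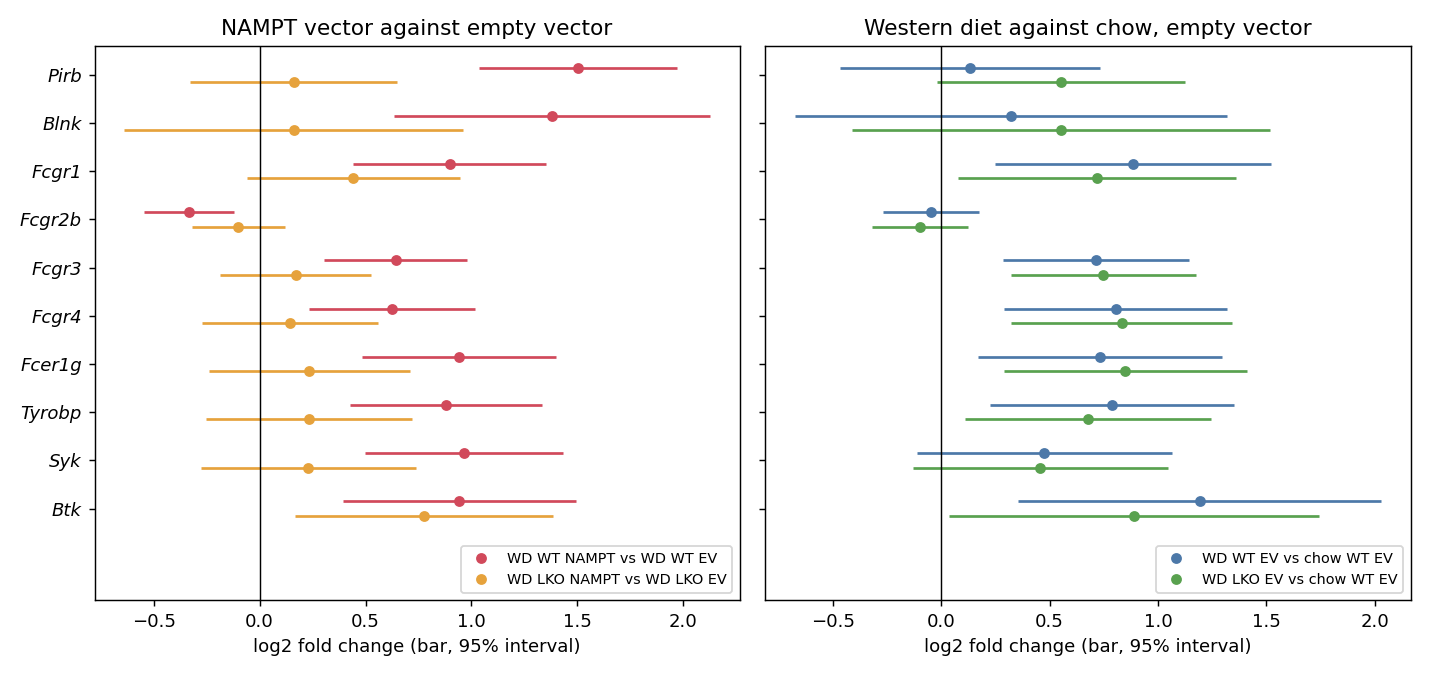
Log2 fold change of each member (points) with its 95% interval (bars) from limma; at left NAMPT against empty vector in WT and in LKO mice on Western diet, at right Western diet against chow in empty vector mice. At left the LKO points lie nearer 0 than the WT points in all 10 members, with Pirb at 0.16 against 1.50, and at right the points of WT and LKO lie close together, above 0 in all members but Fcgr2b.

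Without the NAMPT vector no member was called between the genotypes, and almost no gene was. In WD LKO EV against WD WT EV the number of members called was 0 with limma, edgeR's quasi-likelihood test, its exact test and DESeq2, and 0 had an unadjusted limma p under 0.05, with 0.00711% of all genes called. The count of members is therefore no result about these genes. The log2 differences ran from -0.30 (Btk, 95% interval -0.94 to 0.33) to 0.42 (Pirb, -0.10 to 0.93), with a median of 0.00. Such intervals do not show that the genotypes were alike. The WD WT EV libraries are those against which Pirb and Blnk were chosen, a choice that favours low WD WT EV values of both. Their differences here are therefore a description.

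Fcgr3 and Fcgr4 were called higher in empty vector mice on Western diet than on chow in both contrasts, Fcgr1, Tyrobp and Btk in the WT contrast and Fcer1g in the LKO contrast, and most of these calls were lost in other fits. A call in 1 contrast alone does not show that the genotypes differed. In WD LKO EV against chow WT EV, whose libraries had no part in the choice of members, Fcgr3 rose by 0.75 on the log2 scale (SE 0.21, limma adjusted p = 0.00969), Fcgr4 by 0.83 (SE 0.25, limma adjusted p = 0.0151) and Fcer1g by 0.85 (SE 0.27, limma adjusted p = 0.0229). These 3 were all the members called, where 13% of all genes were called higher, and 6 had an unadjusted p under 0.05. Tyrobp stood at 0.68 (limma adjusted p = 0.0667), Fcgr1 at 0.72 (0.0855), Btk at 0.89 (0.11), Pirb at 0.55 (0.142), Syk at 0.46 (0.238), Blnk at 0.55 (0.396) and Fcgr2b at -0.10 (0.532). All LKO EV libraries lay above all chow libraries in 5 members (Pirb, Fcgr1, Fcgr3, Fcgr4 and Fcer1g), where 11.2% of all genes did so. This contrast sets both diet and genotype against chow, since no chow LKO mice were analysed.

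In WD WT EV against chow WT EV, which shares the WD WT EV libraries with the choosing contrast, limma called 5 members higher against 10.1% of all genes. They were Fcgr1 (log2 fold change 0.89, SE 0.31, adjusted p = 0.0411), Fcgr3 (0.72, SE 0.21, adjusted p = 0.016), Fcgr4 (0.81, SE 0.25, adjusted p = 0.0228), Tyrobp (0.79, SE 0.27, adjusted p = 0.04) and Btk (1.19, SE 0.41, adjusted p = 0.0373). Pirb stood at 0.13 (95% interval -0.47 to 0.73) and Blnk at 0.32. Both were chosen for WD WT EV values below their WD WT NAMPT values, so these differences are a description. All WD WT EV libraries lay above all chow libraries in 2 members, Fcgr1 and Fcgr4, where 7.66% of all genes did.

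Both diet counts rested on the fit and on single chow mice. With edgeR's quasi-likelihood test 0 members were called in either contrast, with its exact test and with DESeq2 0 in WT and 1 in LKO (Fcgr4 in each), and in limma without sample quality weights 0 in both. Those fits called 1201 to 1745 genes in WT and 1399 to 1935 in LKO, against 3101 and 3917. Leaving out chow replicate 1 or chow replicate 2 also gave 0 in both, with 952 and 843 genes called in WT and 1217 and 1074 in LKO, and leaving out WD WT EV replicate 1, 2 or 4 gave 2, 1 and 2 in WT, with 2498, 2816 and 2654 genes called. Without chow replicate 2 the log2 fold change of Fcgr4 was 0.83 in WT and 0.86 in LKO, whereas that of Btk went from 1.19 to 0.09 in WT and from 0.89 to -0.21 in LKO.

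Across libraries, the members other than Fcgr2b rose and fell as one group. Over the 25 libraries the Spearman coefficients of the 36 pairs among these 9 ran from 0.465 (Blnk with Fcgr3) to 0.923 (Tyrobp with Syk), with a median of 0.793, and Fcgr2b was negative with all 9, from -0.532 to -0.383. With each group's own mean removed and all groups pooled, the Pearson coefficients of the 36 pairs ran from 0.447 to 0.919. The shared movement was thus not only one of group means. Groups with a wide spread weigh most in these coefficients, and no group was examined alone. All points share library and scaling, and the coefficients are given without a test.

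The genes outside the list whose level was most like that of Pirb over the 25 libraries were Rab8b (Spearman 0.845), B4galt5 (0.844), Pla2g7 (0.838), Serpinb6a (0.837) and Cxcl16 (0.832). Pla2g7 encodes a secreted phospholipase of macrophages and Cxcl16 a membrane-bound chemokine. Those most like Blnk were Fes (0.824), Fkbp11 (0.82), Dok1 (0.816), Zc3h12a (0.812) and Aif1 (0.806). Fes is a myeloid tyrosine kinase, Dok1 an adaptor that restrains kinase signalling and Aif1 a macrophage marker. The 25 libraries include the WD WT NAMPT libraries on which Pirb and Blnk were chosen, so genes high there can rank high. Both rankings are a description, and the cells that made these genes' RNA were not tested.

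The wider pathway was read from 5 lists that hold no member. In WD WT NAMPT against WD WT EV, the libraries on which members were chosen, limma called 7.67% of all genes higher and 5.77% lower. The counts of the lists there are a description and not support for the members. Of the ITIM receptors and phosphatases 12 of 18 tested were called higher and 1 lower, with a median log2 fold change of 0.85. Of the 3 most abundant per length, Sirpa, the receptor for the "do not eat me" signal CD47, stood at 1.09, Ceacam1, mainly a hepatocyte and endothelial gene in liver, at -0.37, and Ptpn11, a broadly made phosphatase, at 0.08. Among receptors that pair with Fcer1g or Tyrobp, 9 of 17 were called higher and 0 lower, with a median of 1.09, and the 3 most abundant were Cd300ld (0.53), Treml4 (0.76) and Cd300c2 (0.89). Among kinases and relays around Syk and Btk, 15 of 31 were called higher and 0 lower, with a median of 0.45, and the 3 most abundant were Pik3ap1, an adaptor for PI3 kinase (0.53), Skap2 (0.26) and Bcl10 (0.25).

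Pirb's relatives and the other Fc receptors were thinner lists. Of 13 PIR and LILR symbols listed, 3 were in the files under that name and 2 were tested, Pira2 at 0.98 and Lilra5 at 0.41, of which Pira2 was called higher. Of 12 other Fc receptors 5 were tested, 1 called higher and 1 lower, with a median of -0.28. The one called higher was Fcrla, a B cell protein (0.94). The most abundant were Pigr, the transporter of polymeric immunoglobulin (-0.28), Fcgrt, the neonatal Fc receptor that recycles IgG and is made by hepatocytes and endothelium (-0.30), and Trim21, a cytosolic Fc receptor (0.34). Fcgrt was the one called lower.

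In the LKO mice NAMPT gave 0 calls in all 5 lists with limma. The median log2 fold change was 0.27 for the activating receptors (14 of 17 above 0), 0.08 for the ITIM receptors and phosphatases (14 of 18), 0.06 for the kinases and relays (21 of 31), 0.31 for the 2 PIR and LILR relatives and -0.01 for the other Fc receptors. Against chow WT EV, Fcgrt rose by 0.48 in WD WT EV (limma adjusted p = 0.000235) and by 0.49 in WD LKO EV (limma adjusted p = 0.000187), and Pigr fell by 0.60 (limma adjusted p = 0.0218) and by 0.84 (limma adjusted p = 0.00195), where the LKO values hold diet and genotype together. For the activating receptors 2 of 17 rose in each of these contrasts, for the ITIM list 2 of 18 in each, and for the kinases 5 of 31 rose and 1 fell in WT and 4 rose and 2 fell in LKO. Over all genes 10.1% rose and 12% fell in WT and 13% rose and 14.9% fell in LKO, so the shares that rose were near the background and the calls are no result about these lists. The median log2 fold changes in WT and LKO were 0.81 and 1.03 for the activating receptors (14 of 17 above 0 in each), 0.29 and 0.38 for the ITIM list and 0.27 and 0.27 for the kinases, beside 0.72 and 0.70 for the members and 0.00 over all genes.

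**Figure D4:**
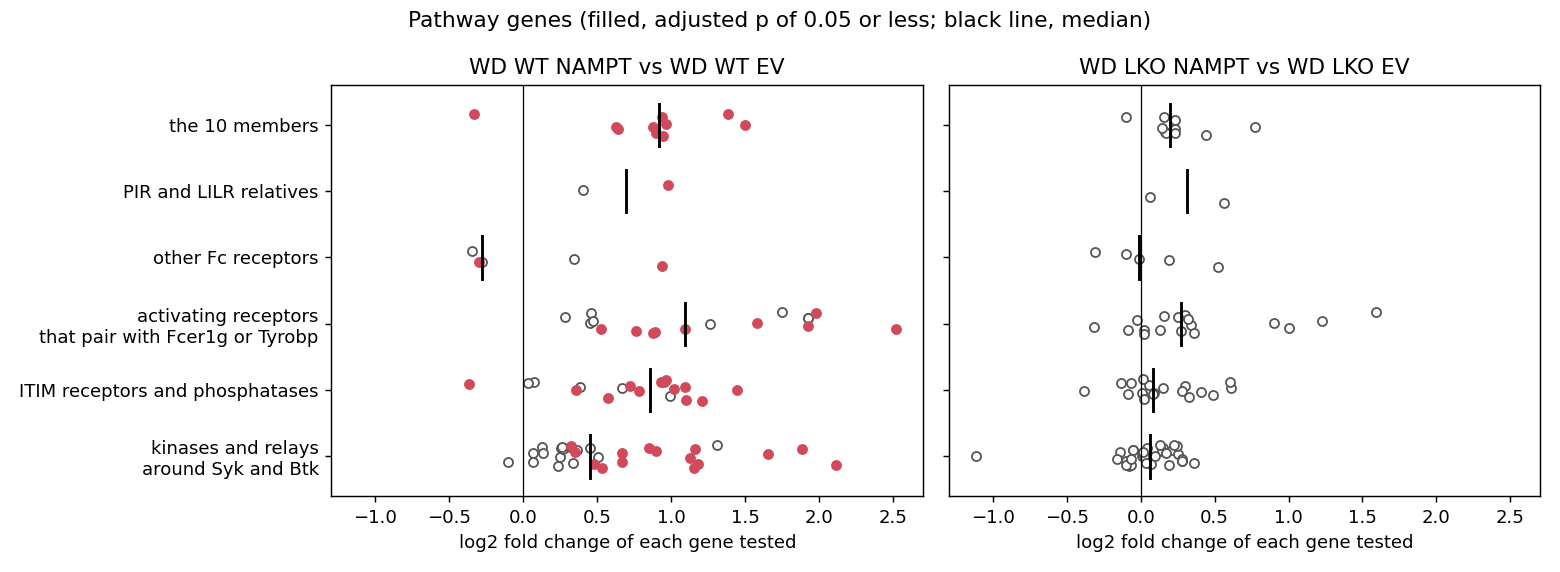
Log2 fold change with NAMPT of each gene tested in the member list and in the 5 pathway lists, in WT mice (left) and LKO mice (right) on Western diet; filled points had a limma adjusted p of 0.05 or less and the black line is the list's median. Filled points fill the upper range of 4 lists at left, and none is filled at right, where the medians lie between -0.01 and 0.31.

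Markers of the cells that carry these proteins moved with them. In WD WT NAMPT against WD WT EV, the libraries on which members were chosen, limma called 7.67% of all genes higher and 5.77% lower. The marker counts there are a description. They come from the main limma fit alone, and most other fits called fewer genes. Of 12 Kupffer cell and macrophage markers, 8 were called higher and 0 lower in WD WT NAMPT against WD WT EV, and their summed level ran from 465 to 654 CPM in WD WT EV, 428 to 1212 in WD WT NAMPT, 512 to 642 in WD LKO EV, 463 to 1016 in WD LKO NAMPT and 379 to 471 in chow. The lowest WT NAMPT sum was replicate 6 and the highest LKO NAMPT sum replicate 1, the same libraries that stood apart in the members. Cd5l and C1qb, the 2 most abundant of these markers, stood at 0.91 and 0.71. Of 7 monocyte markers 5 were called higher, and their sum ran from 51.5 to 102 CPM in WD WT EV and 56.6 to 288 in WD WT NAMPT. Neutrophil markers (6 of 10 tested, 2 called higher) ran from 2.73 to 8.40 and from 3.56 to 27.05 CPM, with Ly6g at no more than 2 counts in any library. Dendritic cell markers (8 tested, 3 called higher) ran from 13.4 to 21.9 and from 9.91 to 47.7 CPM. How much of the members' values these cells account for was not tested.

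Markers of other cells gave mixed values. Their counts with NAMPT in WT mice are likewise a description, beside 7.67% of all genes called higher and 5.77% lower. B cell markers, the cells in which Blnk and Btk were first described, summed to 11.5 to 45.1 CPM in WD WT EV and 14.4 to 26.2 in WD WT NAMPT, 2 of 7 tested were called higher, and Pax5, a transcription factor of the B cell lineage, held at most 16 counts in any library. Sinusoidal endothelial markers, 0 of 7 called higher and 1 lower, summed to 360 to 424 CPM in WD WT EV and 350 to 413 in WD WT NAMPT. Mast cell markers, whose granules are released through Fcer1g, were all below the filter, with 8 counts at most for Cpa3. Stellate cell markers moved the same way as those of macrophages, with 4 of 7 called higher in WT NAMPT, and their sum was lowest in WT NAMPT replicate 6 (204 CPM) and highest among LKO NAMPT mice in replicate 1 (333 CPM). T and NK cell markers had 0 of 7 called, although 6 of 7 were above 0 with a median log2 fold change of 0.78, against 0.72 for the macrophage markers. Platelet markers had 0 of 3 called, cholangiocyte markers 0 of 5, and 2 of 7 hepatocyte markers were called lower. Against chow WT EV, 4 of 12 macrophage markers rose in WD WT EV, where 10.1% of all genes did, and 5 of 12 in WD LKO EV, where 13% did and where diet and genotype are set against chow together, Cd5l by 1.06 (limma adjusted p = 0.00144) and 0.96 (limma adjusted p = 0.00285).

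**Figure D5:**
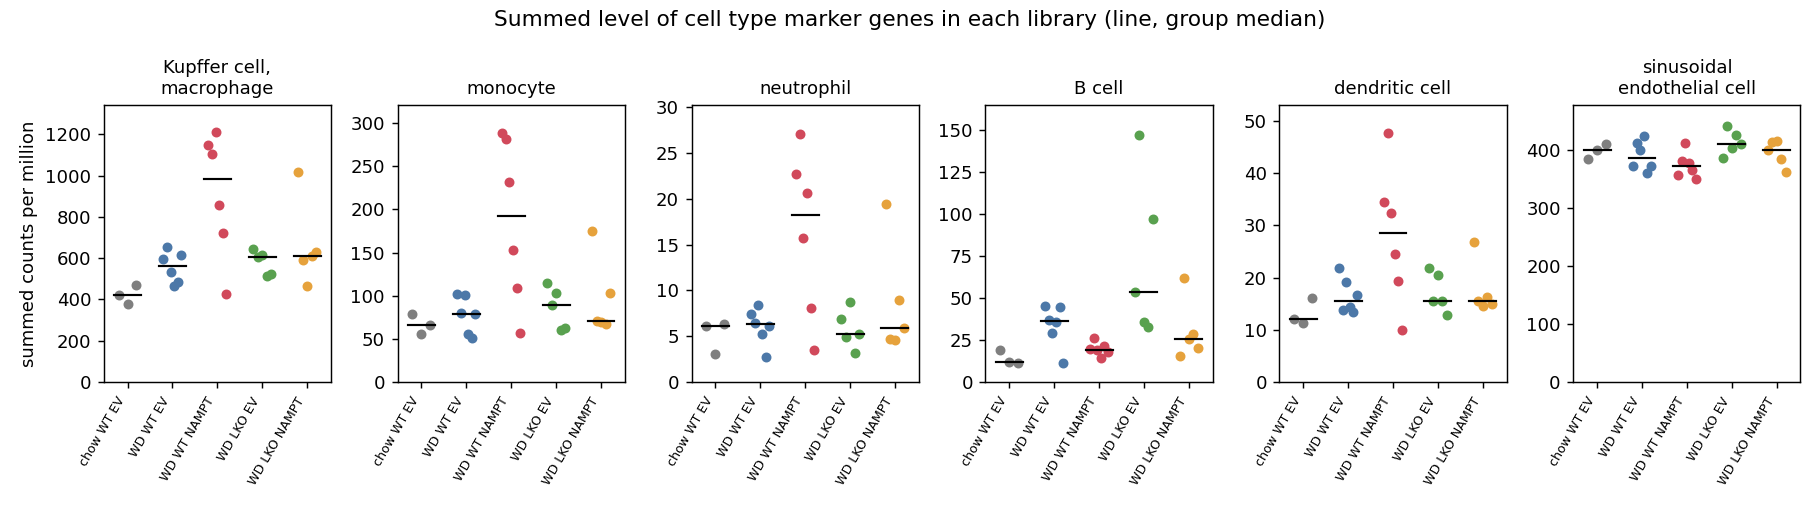
Summed CPM of the marker genes of 6 cell types (panels, vertical axis from 0) in every library of the 5 groups; the line is the group median. Macrophage, monocyte, neutrophil and dendritic cell sums are high in most WD WT NAMPT mice and in 1 WD LKO NAMPT mouse, B cell sums are highest in 2 WD LKO EV mice, and sinusoidal endothelial sums stay between 350 and 442 CPM throughout.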

How the data were processed

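Liver RNA was poly-A selected and sequenced as single-end 50-base reads. The authors aligned reads with STAR and counted uniquely aligned reads per gene with featureCounts on GRCm38 (the submitters' processing notes give STAR 2.5.1a and featureCounts 1.4.6-p5), and whether strand was used is not given in the sources used here. The deposited files hold whole-number counts per gene for 41388 identifiers, beside the authors' CPM and RPKM. Recomputation from the counts matched both to within 5.9e-14 of the value. Symbols came from GENCODE vM21.

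Here genes over 1 CPM in at least 2 libraries were kept, 4 ribosomal RNA genes were removed, and 14065 genes were fitted over all 25 libraries with 1 mean per group in limma 3.58.1 (R 4.3.3, TMM factors, voom with sample quality weights, 24.57 degrees of freedom). Calls had a Benjamini-Hochberg adjusted p of 0.05 or less over all genes, and p-values are two-sided. Alternatives were edgeR 4.0.16, DESeq2 1.42.0, limma without weights, other scalings, 2 surrogate variables from sva 3.50.0, no filter, fewer groups, a replicate block and leaving out each library. The scripts were tested on simulated data. The members, lists and tests were chosen with earlier results of these data known. Named beside the members were the 3 genes of highest mean RPKM in each pathway list (2 in marker lists) and the 5 genes with the highest Spearman coefficient with Pirb and with Blnk, and other names were chosen after their values were seen. Protein sequences were not used here.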

Additional observations from a re-analysis of the deposited data

Results flagged for a closer look

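In 4 of the 40 groups of members and conditions tested, 1 library lay far from the rest by Dixon's test at the 95% level, which chance alone gives in about 1 of 20 groups. All 4 were the same mouse, WD LKO NAMPT replicate 1. Its level was 13.02 CPM for Pirb, where the next library of the group read 6.31, and 6.631 CPM for Blnk, where the next read 2.031. It was 33.89 CPM for Tyrobp, where the next read 18.63, and 20.49 CPM for Syk, where the next read 10.96. In the same library the summed macrophage markers were 1016 CPM, the highest of the group. Members without this library are given with the comparisons that use it.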

How the results depend on the processing

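With 5 or 6 mice per WD group and 3 on chow, counts of called members depended on the fit, and the cause was not tested. The number of all genes called is given after each count. With NAMPT in WT mice (10 members, 1890 genes) they were 3 (428) with edgeR's quasi-likelihood test, 1 (192) without sample quality weights, 1 (68) with 2 surrogate variables, 3 (524) without a filter, 6 (653) with only the groups compared and 1 to 10 leaving out 1 library (132 to 2846). For LKO against WT under NAMPT (3 members, 1120 genes) they were 0 with edgeR's quasi-likelihood (45) and exact tests (177), DESeq2 (294), no weights (38), 2 surrogate variables (64), no filter (120) and only the groups compared (12), and 0 to 8 leaving out 1 library (0 to 2287). For diet in WT (5 members, 3101 genes) they were 0 with edgeR's quasi-likelihood (1322) and exact tests (1465), DESeq2 (1745), no weights (1201) and no filter (1970), 3 (3228) with library size alone, 1 (3334) with 2 surrogate variables and 0 to 6 leaving out 1 library (843 to 3171). For diet in LKO (3 members, 3917 genes) they were 0 with the quasi-likelihood test (1529), no weights (1399) and no filter (2249), 1 with the exact test (1640), DESeq2 (1935) and 2 surrogate variables (3489), 6 (3540) with only the groups compared and 0 to 3 leaving out 1 library (1074 to 3914). The interaction (0 members, 1 gene) gave 0 to 1 leaving out 1 library (1 to 676). NAMPT in LKO mice and genotype under the empty vector gave 0 members in every fit.

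Replicate numbers were not taken to pair the mice. Correlations of same-numbered libraries after removing group means ran from -0.228 to 0.415 for NAMPT in WT mice. For genotype under the empty vector they ran from -0.377 to 0.419. Differently numbered libraries were not set beside them, so pairing was not tested. With the replicate block the counts were 5 (884 genes) for NAMPT in WT, 0 (0) in LKO, 2 (412) for LKO against WT under NAMPT, 0 (2) for genotype under the empty vector, 7 (3842) and 4 (3070) for diet in WT and LKO and 0 (66) for the interaction.

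Some log2 differences changed sign, 38 in all. For LKO against WT under NAMPT, Fcgr2b stood at -0.015 with DESeq2, -0.0077 with edgeR's quasi-likelihood test, -0.0076 with its exact test and -0.080 with 2 surrogate variables, where Fcgr1 stood at 0.038. For genotype under the empty vector, the replicate block gave 0.012 for Fcgr2b, -0.19 for Fcgr3, -0.077 for Fcgr4 and -0.15 for Fcer1g, and 2 surrogate variables gave -0.049 for Fcgr3 and -0.0073 for Fcgr4. With 2 surrogate variables the diet difference in WT was -0.095 for Pirb, -0.20 for Blnk and 0.078 for Fcgr2b, and in LKO 0.039 for Fcgr2b and -0.086 for Syk. In the interaction they gave 0.34 for Fcgr1, -0.041 for Fcgr2b, 0.0073 for Tyrobp, 0.023 for Syk and 0.40 for Btk, and the replicate block gave 0.16 for Btk. Leaving out 1 library at a time gave, for genotype under the empty vector, -0.053 to 0.087 for Fcgr3, -0.032 to 0.19 for Fcgr4, -0.015 to 0.20 for Fcer1g and -0.15 to 0.14 for Syk, with NAMPT in LKO mice -0.10 to 0.38 for Blnk, and for diet -0.083 to 0.44 for Blnk in WT and -0.21 to 1.03 for Btk in LKO. None of the reversed values had an adjusted p of 0.05 or less.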
